A study of Rattus norvegicus with 8 samples.

Results

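The interferon-induced genes described here are 9 genes of the rat, Rtp4, Ifit2, Ifit3, Irf7, Isg15, Mx1, Mx2, Oas1a and Usp18, measured in liver under a control diet and a high-phosphorus (HP) diet. They were taken as a list of known interferon targets, at every probe set of the array whose annotation gave that symbol alone. A probe set counted as measured when its log2 value differed by at least 0.05 between the highest and the lowest of the 8 rats. The 9 genes had 11 probe sets, of which 8 were measured, and 7 of the 9 genes had a measured probe set, against 2808 measured genes of the 14218 with a single symbol on the array. Male Wistar rats were bought at 4 weeks of age and ate the control diet for 7 days, and groups of 5 were then fed AIN-93G diets with 0.3% phosphorus (control) or 1.2% phosphorus (HP) for 24 days. Liver RNA of 4 rats of each group, aged 8 weeks by the labels, was hybridised to 1 Affymetrix GeneChip per rat. No genotype, drug or infection was part of the design, and no group was given an interferon or an agent that induces one.

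Interferons are secreted proteins that cells release when they sense viral or other foreign nucleic acid. Type I interferons bind a receptor whose kinases, JAK1 and TYK2, activate a transcription factor complex that holds STAT2 and IRF9. The complex enters the nucleus and binds the interferon-stimulated response element (ISRE) in front of target genes, while interferon gamma acts mainly through the gamma-activated site (GAS). Many of the induced proteins hinder viral replication, and others, such as IRF7 and USP18, raise or restrain the response itself.

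The 9 genes lay on 5 chromosomes of the GRCr8 assembly. Ifit2 and Ifit3 were neighbours on chromosome 1 with 0 protein-coding genes between them, and Mx1 and Mx2 were separated by 1 protein-coding gene on chromosome 11. RefSeq promoters from 250 bases before to 50 bases after the gene start were matched by symbol for 4 of the 9 genes, Ifit3, Irf7, Mx1 and Oas1a. Rtp4, Ifit2, Isg15, Mx2 and Usp18 were not matched. The core of the ISRE, searched on both strands as the letters GAAA, any 2 bases and GAAA, was found in 3 of the 4 promoters and in 3.92% of the 33469 promoters of the same length in the table. The GAS, searched as TTCNNNGAA, was found in 1 of the 4 promoters, that of Oas1a, and in 8.87% of all promoters. The 100 bases before the start of the 3 genes with an ISRE core are shown because this element is the feature that defines the response. They are written 5′ to 3′ on the gene's strand, with the core in capitals, at chr1:241527226-241527325 on the plus strand for Ifit3, chr1:205800024-205800123 on the minus strand for Irf7, and chr12:41330366-41330465 on the plus strand for Oas1a.
Ifit3: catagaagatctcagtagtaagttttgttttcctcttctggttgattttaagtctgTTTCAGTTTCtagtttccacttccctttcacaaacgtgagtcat
Irf7: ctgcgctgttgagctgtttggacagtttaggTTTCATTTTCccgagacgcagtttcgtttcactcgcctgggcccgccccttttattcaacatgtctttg
Oas1a: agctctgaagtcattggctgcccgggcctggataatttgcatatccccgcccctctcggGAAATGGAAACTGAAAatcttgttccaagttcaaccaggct
In Ifit3 and Irf7 the core stood on the opposite strand, 44 to 35 bases and 69 to 60 bases before the start. Oas1a held 2 overlapping cores on the gene strand, 41 to 32 and 35 to 26 bases before the start, and a GAS outside the stretch shown, 199 to 191 bases before it. A match of letters is a description of the sequence, and no binding was measured.

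All values are log2 probe set values, which are on each probe set's own scale, so that levels were compared between rats and not between genes. The probe set summary used for the files, FARMS, leaves a probe set without signal shared by its probes almost constant, and 4155 of the 31042 probe sets (13.4%) were measured. The median of every array was 6.65. The 4 rats of a group were labelled as biological replicates. Differences are given as the HP mean minus the control mean. They were tested with limma (Benjamini-Hochberg adjusted p under 0.05 over the 4155 measured probe sets) and with rank products, the method of the study, at a false discovery rate (FDR) under 0.05 over all 31099 probe sets. Rank products treats all probe sets as having 1 spread, the nearly constant ones included. In whole liver RNA, fewer cells of a type and less RNA per cell cannot be told apart.

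Among the 7 measured genes the difference was positive in 6, or in 7 with the arrays centred on the measured median, where that of Isg15 turned positive, and the largest were those of Rtp4, 0.25, and Ifit2, 0.24. With limma 0 of the 7 genes passed, as did 0 of all 4155 measured probe sets (0%), of which 526 had an unadjusted p under 0.05, 223 of them higher in HP diet-fed rats (5.37%). Rtp4 was the 1 listed gene with an unadjusted p under 0.05. Rank products called 2 of the 7 genes, Rtp4 and Ifit2, higher in HP diet-fed rats, where it called 353 probe sets higher, which were 1.14% of all probe sets and 8.5% of the measured ones. It called 0 of the 7 lower, against 11.9% of the measured probe sets. The median difference of the 7 genes was 0.12, against -0.02 over all measured probe sets. It was 0.06 without control rat 1 and 0.04 without HP rat 2, and 0.23 and 0.24 without control rats 3 and 4. In 0 of the 7 genes were the diets without overlap, in either direction. All HP diet-fed rats lay above all control rats in 3.1% of the measured probe sets, so that 0 of 7 is close to that share.

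Rtp4 encodes a receptor-transporting protein that helps certain receptors to reach the cell surface and is itself induced by type I interferon. Its log2 values in control rats 1 to 4 were 7.38, 7.39, 7.37 and 7.66, and in HP rats 1 to 4 they were 7.73, 7.71, 7.61 and 7.76. Of the control rats 3 lay close together and below every HP diet-fed rat, and control rat 4 lay within the HP range, above HP rat 3. The means were 7.45 ± 0.14 (SD, n = 4) and 7.70 ± 0.06 (SD, n = 4). The difference of 0.25 (SE 0.09, 95% interval 0.05 to 0.46), a 1.19-fold ratio with an interval from 1.03 to 1.38, had an adjusted p of 0.339 with limma and Benjamini-Hochberg adjustment and an FDR of 0.0141 with rank products. The FDR was 0.535 when the measured probe sets alone were ranked, and 0.0789, 0.0802 and 0.0814 without HP rat 1, 2 or 4.

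Ifit2 encodes a protein with tetratricopeptide repeats that acts against the translation of viral RNA. At the probe set with the higher mean its log2 values were 7.58, 7.65, 7.72 and 8.04 in control rats 1 to 4 and 7.96, 7.97, 7.92 and 8.11 in HP rats 1 to 4. The pattern was that of Rtp4, with control rats 1, 2 and 3 below every HP diet-fed rat and control rat 4 inside the HP range. The difference was 0.24 (SE 0.11, 95% interval -0.0016 to 0.49). It had an unadjusted limma p of 0.0512, a limma adjusted p of 0.398 (Benjamini-Hochberg) and a rank products FDR of 0.0257. That FDR was 0.53 when the measured probe sets alone were ranked, and it was above 0.05 when any 1 of 6 rats was left out (0.0518 to 0.145) and below 0.05 without control rat 3 or 4.
The other measured probe set of Ifit2 had a smaller difference, 0.07 (SE 0.07), with a limma adjusted p of 0.672 (Benjamini-Hochberg) and an FDR of 0.171. Over the 8 rats the probe sets of Ifit2 had a Pearson's r of 0.951, so that they ordered the rats alike and differed in how far apart they placed them.
Ifit3, the neighbouring gene of the same family, had 1 probe set, which spanned 0.000668 (log2) and gave no information on the diets.

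**Figure D1:**
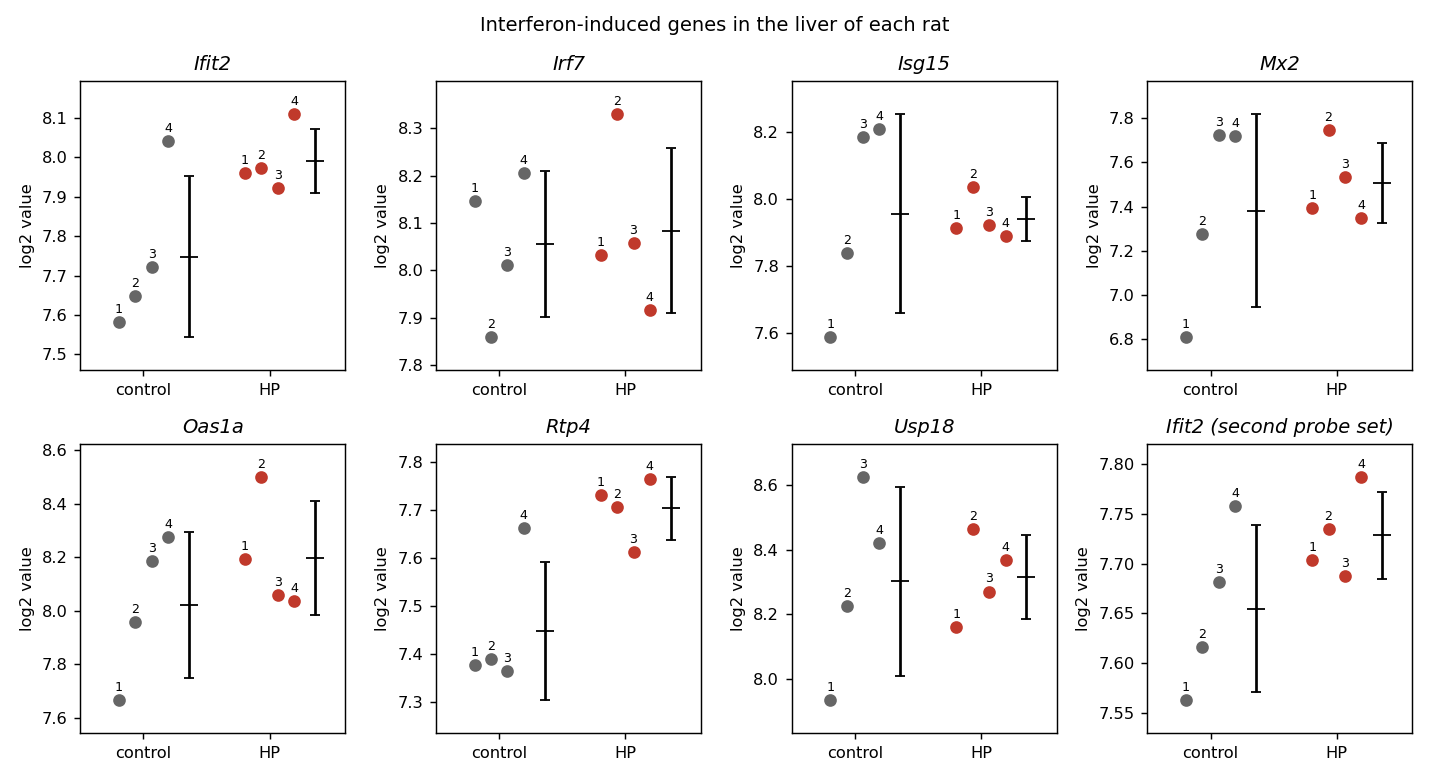
Log2 value (vertical axis) of the 8 measured probe sets of the interferon-induced genes in each control and HP diet-fed rat, numbered 1 to 4; the black dash and bar give the mean and SD of each diet (n = 4), and each panel has its own axis, which does not start at 0. In Rtp4 and Ifit2 control rats 1 to 3 lie below every HP diet-fed rat, and in Isg15, Mx2, Oas1a and Usp18 control rat 1 is the lowest of the 8.

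Oas1a encodes an oligoadenylate synthetase, which senses double-stranded RNA and activates the ribonuclease RNase L. Its log2 values were 7.67, 7.96, 8.18 and 8.28 in control rats 1 to 4 and 8.19, 8.50, 8.06 and 8.04 in HP rats 1 to 4. Control rat 1 was the lowest and HP rat 2 the highest, and the other 6 rats of both diets overlapped. The difference was 0.18 (SE 0.15), with a limma adjusted p of 0.617 (Benjamini-Hochberg) and a rank products FDR of 0.0685. The difference was 0.06 without control rat 1 and 0.07 without HP rat 2. The rat has further Oas1 genes close in sequence to Oas1a, and their share in this probe set was not tested.

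Mx2 encodes a dynamin-like GTPase that blocks viral replication, and it had the widest span of the 7 genes, 0.94 (log2). Its log2 values were 6.81, 7.27, 7.72 and 7.72 in control rats 1 to 4 and 7.39, 7.75, 7.54 and 7.35 in HP rats 1 to 4. Control rats 1 and 2 were the lowest of the 8, and control rats 3 and 4 lay with the highest HP diet-fed rat. The means were 7.38 ± 0.43 (SD, n = 4) and 7.51 ± 0.18 (SD, n = 4), and the difference of 0.12 (SE 0.20) had a limma adjusted p of 0.809 (Benjamini-Hochberg) and an FDR of 0.0874. Without control rat 1 the difference was -0.07. The FDR of Mx2 and Oas1a was under 0.05 without control rat 3 (0.0266 and 0.0381) or control rat 4 (0.0216 and 0.0186), and far above it without control rat 1 (0.947 and 0.461) or HP rat 2 (0.475 and 0.491). The other probe set of Mx2 spanned 0.000441 and the 1 probe set of Mx1, the paralogue beside it, spanned 0.000776.

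Isg15 encodes a ubiquitin-like protein that is attached to other proteins during the response. Its log2 values were 7.59, 7.84, 8.18 and 8.21 in control rats 1 to 4 and 7.91, 8.04, 7.92 and 7.89 in HP rats 1 to 4. All HP diet-fed rats lay inside the range of the control rats, whose SD was 0.30 against 0.07. The difference was -0.02 (SE 0.14), with a limma adjusted p of 0.975 (Benjamini-Hochberg) and an interval from -0.33 to 0.30.
Usp18 encodes the protease that removes ISG15 from proteins and also restrains signalling at the type I interferon receptor. It was lowest in control rat 1, at 7.94, and highest in control rat 3, at 8.63 (log2), so that the control rats enclosed the HP diet-fed rats, which ran from 8.16 to 8.46. The difference was 0.01 (SE 0.14; limma with Benjamini-Hochberg, adjusted p = 0.978).

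Irf7 encodes the transcription factor that amplifies the production of type I interferon. Its log2 values were 8.15, 7.86, 8.01 and 8.21 in control rats 1 to 4 and 8.03, 8.33, 8.06 and 7.92 in HP rats 1 to 4. The diets overlapped almost entirely, with the lowest value in control rat 2 and the highest in HP rat 2. It was the 1 gene of the 7 in which the range of the HP diet-fed rats, 0.41, was above that of the control rats, 0.35. The difference was 0.03 (SE 0.11), with a limma adjusted p of 0.936 (Benjamini-Hochberg).

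Part of the genes, on different chromosomes, ordered the rats alike, namely Isg15, Mx2, Oas1a and Usp18, and Rtp4 with Ifit2. Rtp4 did not share the order of Isg15, Mx2, Usp18 or Irf7, with a Spearman's rho of 0.02, 0.07, -0.02 and 0.07. Ifit2 was less apart from the others, with a rho of 0.48 with Isg15, 0.43 with Mx2, 0.60 with Oas1a, 0.45 with Usp18 and 0.19 with Irf7. Control rat 1 was the lowest of the 8 rats in 5 of the 7 genes, namely Ifit2, Isg15, Mx2, Oas1a and Usp18, whereas it was the lowest in 13.6% of all measured probe sets. HP rat 2 was the highest in 3 genes, Irf7, Mx2 and Oas1a, and HP rat 4 in both Rtp4 and Ifit2. The control rats had the wider range in 6 of the 7 genes, and in 67.3% of all measured probe sets. The mean deviation of the 7 genes from their own means (log2) was -0.32, -0.16, 0.07 and 0.17 in control rats 1 to 4. In HP rats 1 to 4 it was 0.01, 0.20, 0.01 and 0.02. Control rat 2 lay below the gene's mean in 7 of 7 genes, and control rat 4 and HP rat 2 lay above it in 7 of 7. The means by diet were -0.06 ± 0.22 (SD, n = 4) in control and 0.06 ± 0.10 (SD, n = 4) in HP diet-fed rats, so that the diets differed by less than the spread among the control rats.

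**Figure D2:**
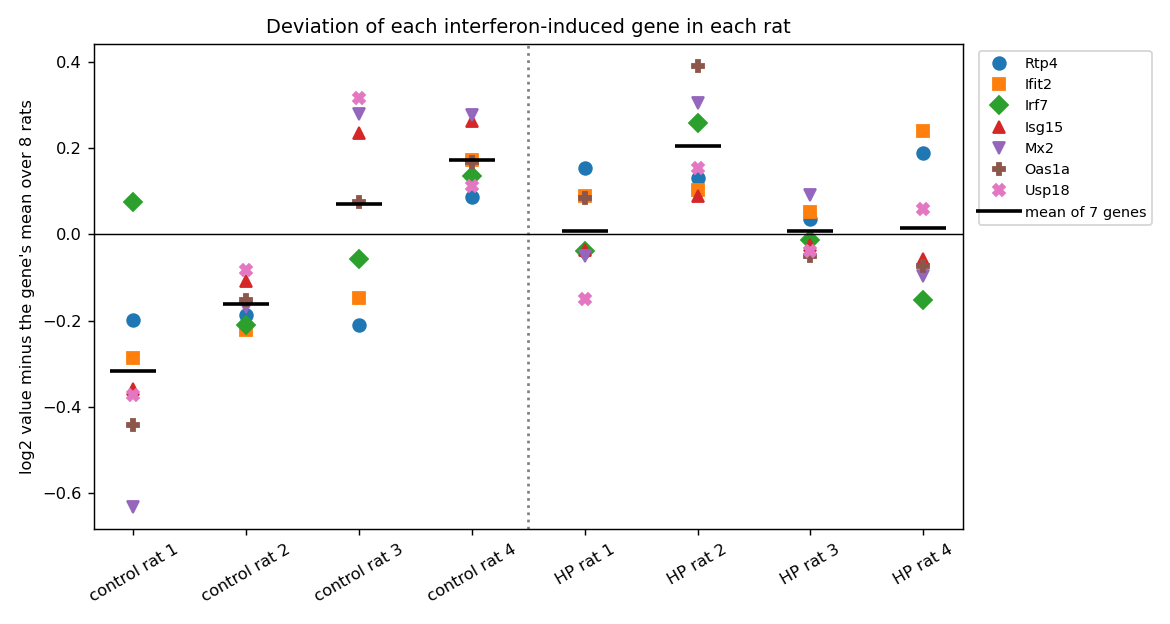
Log2 value of each of the 7 measured genes minus that gene's mean over the 8 rats (vertical axis), for each rat (horizontal axis), with the mean of the 7 genes as a black dash; the dotted line separates the diets. Control rats 1 and 2 have the lowest means, -0.32 and -0.16, and HP rat 2 and control rat 4 the highest, 0.20 and 0.17.

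The 21 pairs of the 7 genes were compared over the 8 rats. Pearson's r was positive in all 21 pairs, from 0.10 to 0.95 with a median of 0.48, against a median of 0.01 over all pairs of measured probe sets. In 7 pairs r was at least 0.7, as in 5.53% of all pairs of measured probe sets. Isg15, Mx2, Oas1a and Usp18 made up 6 of these pairs, with r from 0.74 to 0.94, and Rtp4 with Ifit2 was the seventh. For Isg15 and Mx2, r was 0.945 (exact permutation p = 0.000546, adjusted over the 21 pairs 0.0115), Spearman's rho was 0.905 (exact permutation p = 0.00456, adjusted 0.0646), and r without the 2 rats farthest from the median of Isg15 was 0.882. For Rtp4 and Ifit2, r was 0.947 (exact permutation p = 0.00288, adjusted 0.0185), rho was 0.833 (exact permutation p = 0.0154, adjusted 0.0646), and r without the 2 rats farthest from the median of Rtp4 was 0.938. By Pearson's r 5 pairs had an adjusted exact p under 0.05, and by Spearman's rho 0 pairs had.

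With each diet's mean removed, r was at least 0.7 in 7 pairs. The 6 pairs among Isg15, Mx2, Oas1a and Usp18 then ran from 0.78 to 0.98. Within the control rats alone these 6 pairs ran from 0.91 to 0.99. Within the HP diet-fed rats alone they ran from 0.52 to 0.96, and those of Usp18 with Oas1a, Mx2 and Isg15 were the lowest, 0.52, 0.62 and 0.65. Each of these 6 r was higher in the control rats than in the HP diet-fed rats. The control rats also had the wider range in each of these genes, such as 0.91 against 0.40 in Mx2 and 0.62 against 0.15 in Isg15. The part of the range in r was not tested. The difference between the diets in r was not tested. Without control rat 1 these 6 pairs ran from 0.45 to 0.88. Without the 2 rats farthest from the median of 1 gene of the pair they ran from 0.38 to 0.89. By Pearson's r over the 8 rats Irf7 had the weakest relations, 0.10 to 0.48 in its 6 pairs. By Spearman's rho its pairs ran from 0.07 to 0.57, and those of Rtp4 other than with Ifit2 from -0.02 to 0.38. Pearson's r of the Irf7 pairs ran from 0.36 to 0.94 without control rat 1, the rat in which Irf7 alone of the 7 genes was above its mean. Control rat 2 and HP rat 2, the lowest and the highest in Irf7, were the 2 rats farthest from its median. Without them r of Irf7 was 0.05 with Isg15, -0.07 with Mx2, -0.08 with Oas1a and -0.29 with Usp18. It was 0.43 with Rtp4 and 0.07 with Ifit2 without the 2 rats farthest from the median of Rtp4 or Ifit2. Over the 8 rats r of Ifit2 was 0.47 with Isg15, 0.55 with Mx2, 0.62 with Oas1a, 0.39 with Usp18 and 0.21 with Irf7. Without control rat 1, r of Rtp4 with Ifit2 was 0.942. In the same 7 rats r of Rtp4 was -0.16 with Isg15, -0.02 with Mx2, 0.36 with Oas1a, -0.29 with Usp18 and 0.41 with Irf7, and that of Ifit2 was 0.07, 0.13, 0.34, -0.06 and 0.42. The difference between these values and those of the other pairs was not tested.

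**Figure D3:**
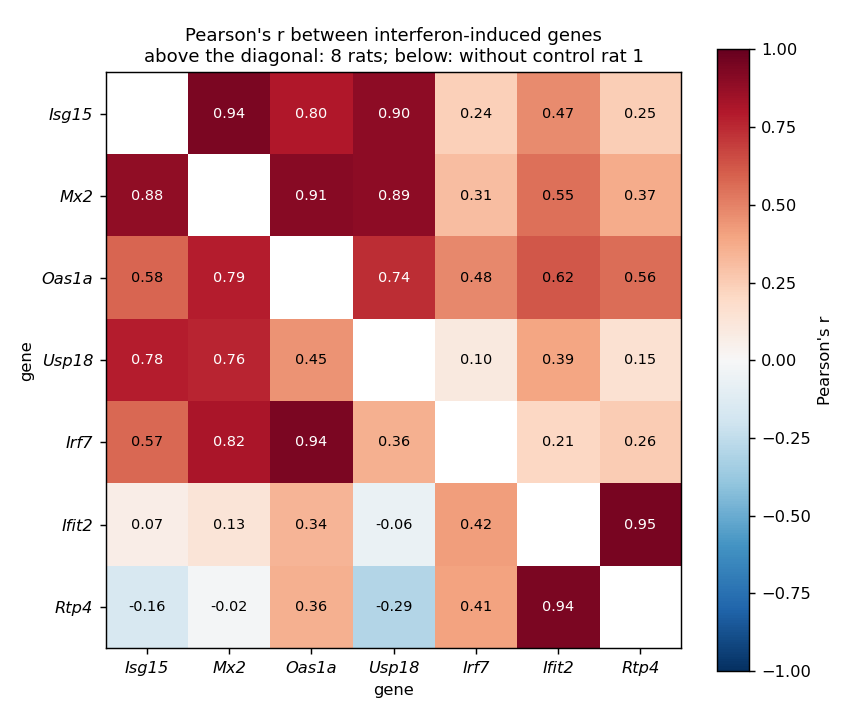
Pearson's r between each pair of the 7 measured genes (both axes), over 8 rats above the diagonal and without control rat 1 below it; the colour runs from -1 to 1. Isg15, Mx2, Oas1a and Usp18 form a block with r from 0.74 to 0.94 over 8 rats, and Rtp4 and Ifit2 form a pair at 0.95.

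Signs of RNA quality, array signal and cell makeup were set beside this order of the rats. The difference between the 3′ and 5′ probe sets of Gapdh, a measure of RNA integrity, was 0.95 (log2) in control rat 1, within the 0.81 to 0.98 of all 8 rats. The lowest, 0.81, was that of HP rat 4, and the next lowest was 0.91, in HP rat 2. The difference of beta-actin was 1.99 in control rat 1, within 1.89 to 2.16. The 6 measured probe sets of the Bio hybridisation controls deviated on average by 0.08 in control rat 1, by 0.10 in HP rat 4, by -0.08 in HP rat 2 and by -0.11 in HP rat 3, and by at most 0.02 in size in the other 4 rats. Control rat 1 had the highest mean deviation of the 10 measured Kupffer cell and macrophage markers, 0.21 (log2), where the other control rats ran from -0.12 to 0.07 and the HP diet-fed rats from -0.13 to 0.06. The part of these in the order of the rats was not tested.
Of the markers of other blood cells, 0 of 13 T and NK cell, 0 of 4 B and plasma cell and 0 of 5 neutrophil genes with a named probe set were measured, and of 6 dendritic cell genes 1 was, Bst2, which is itself induced by interferon. Of 9 hepatocyte markers with a named probe set 6 were measured, and the albumin gene Alb, although nearly constant, stood at 14.53, the highest value of the table, so that a nearly constant probe set is not a sign that a gene is absent.

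The genes most like the mean of the 7 interferon-induced genes over the 8 rats, among 2801 other measured genes, were Mrps11, Cops6, Rpl14, C1h19orf33, Rps23, Rps9, Rps3, Rpl18, Taf10 and Rbx1, with Pearson's r from 0.928 to 0.965. None of the 10 is an interferon target of the lists used here. Cytosolic ribosomal proteins, which build the ribosome, made up 5 of the 10. The 34 measured genes with a symbol of this kind were a group chosen after the 10 genes were seen, and they include those 5. Of the 34, 22 had an r of at least 0.7 with the mean of the 7 genes, against 5.68% of the 2801, and r ran from -0.16 to 0.95. Their own movement was smaller, since the mean deviation of the 34 genes was -0.08 in both control rats 1 and 2 (log2), 0.02 and 0.05 in control rats 3 and 4, and 0.01, 0.04, 0.04 and -0.0017 in HP rats 1 to 4. The part of this shared order in the interferon-induced genes was not tested.

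The rest of the interferon system was described from lists of known genes. Of 49 further type I interferon targets, 37 had a named probe set and 18 were measured. The difference was positive in 13 of the 18, or in 14 with the arrays centred or quantile normalized, with a median of 0.07 against -0.02 over all measured probe sets, and limma passed 0 while rank products called 3 higher and 0 lower, against 8.5% and 11.9% of all measured probe sets. The 3 genes called were Tor3a, Trim34 and Pml. Trim34, a tripartite motif protein, had log2 values of 8.33, 8.32, 8.21 and 8.00 in control rats 1 to 4 and 8.48, 8.46, 8.44 and 8.63 in HP rats 1 to 4. It was the 1 gene of the 18 without overlap between the diets, which 3.1% of all measured probe sets showed with HP above control, with a difference of 0.29 (SE 0.09), a limma adjusted p of 0.309 (Benjamini-Hochberg) and an FDR of 0.00831. Pml, which organises nuclear bodies, had a difference of 0.27 (SE 0.11; limma with Benjamini-Hochberg, adjusted p = 0.378; FDR 0.0129), and control rat 3 lay above HP rat 3.
Tor3a, an ATPase of the endoplasmic reticulum, had the largest difference of the list, 0.44 (SE 0.31; limma with Benjamini-Hochberg, adjusted p = 0.537; FDR 0.00487). It was 8.00 in HP rat 4, while the other HP diet-fed rats, at 6.77 to 7.09, lay within the control range of 6.20 to 7.29. The mean of the 18 genes ordered the rats otherwise than that of the 7, since control rat 4 was the lowest, at -0.07, and control rat 1 was at -0.04.

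**Figure D4:**
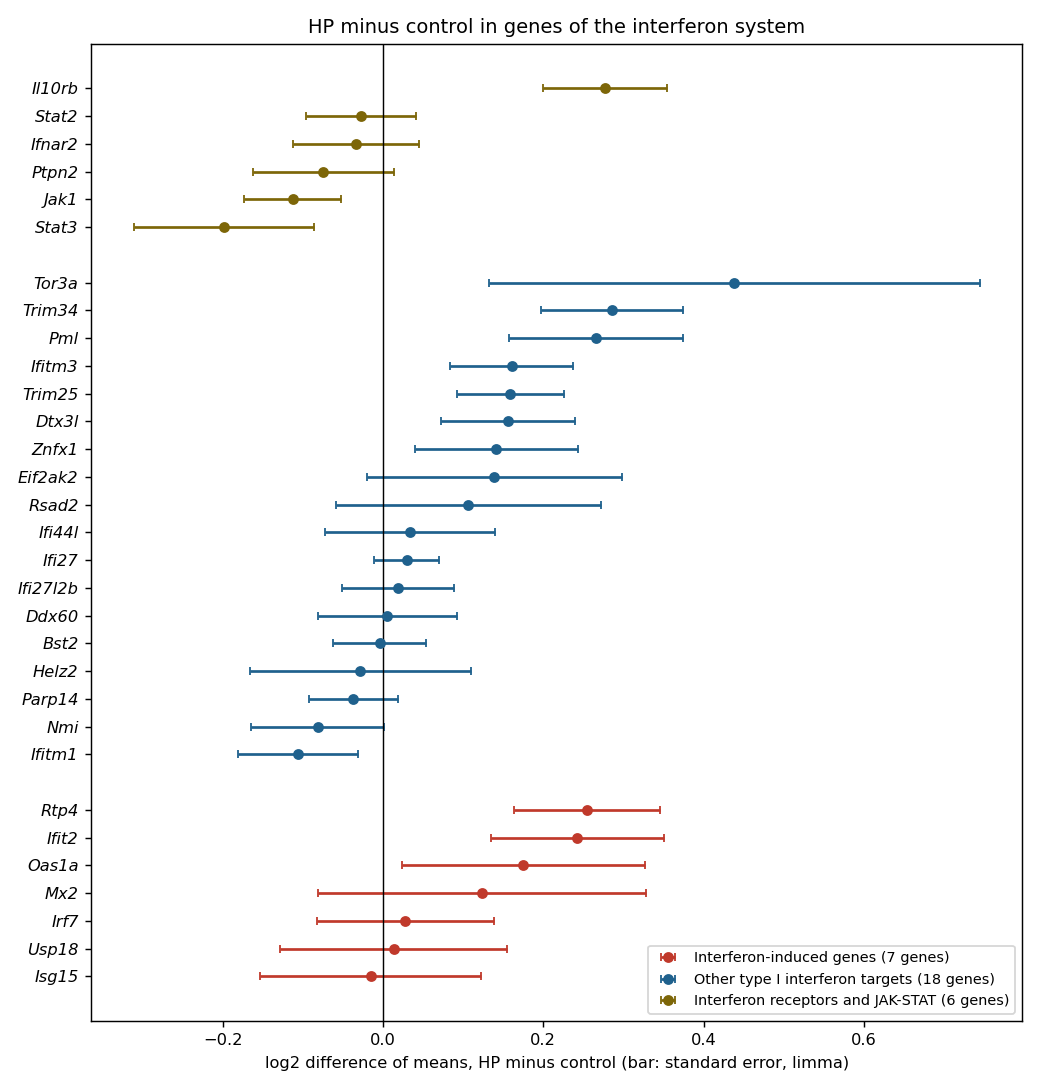
Log2 difference of the means, HP minus control (horizontal axis), with its standard error from limma (bar, n = 4 rats per diet), for the measured genes of the interferon-induced list, of the other type I interferon targets and of the interferon receptors and JAK-STAT genes. Rtp4 and Ifit2 lie at 0.25 and 0.24, while Irf7, Usp18 and Isg15 lie within 0.03 of 0.

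ISG15 is joined to proteins by an enzyme chain and removed by USP18. Of its 5 genes, 4 were measured, and in all 4 control rat 1 was the lowest of the 8, as in 13.6% of all measured probe sets. Of the 4 genes Isg15 and Usp18 are among the 7 already described, and Ube2l6 and Herc6 are not. Ube2l6, the conjugating enzyme, was 8.44, 8.78, 8.70 and 8.59 in control rats 1 to 4 and 8.80, 8.84, 8.66 and 8.65 in HP rats 1 to 4 (log2). Control rat 1 stood below a range that the other 7 rats shared, and the difference was 0.11 (SE 0.09; limma with Benjamini-Hochberg, adjusted p = 0.586). The ligase Herc6 had a difference of 0.06 (SE 0.10; limma with Benjamini-Hochberg, adjusted p = 0.811), and the activating enzyme Uba7 was nearly constant.

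Interferon gamma targets had no call in either direction at the probe set with the highest mean of each gene. Over all measured probe sets rank products called 8.5% higher and 11.9% lower. Of the 27 genes of this list, 23 had a named probe set and 13 were measured. They had 5 positive and 8 negative differences (6 and 7 with the arrays centred) and a median of -0.02. The largest were those of Cxcl9, a chemokine that attracts T cells, at -0.24 (SE 0.17; limma with Benjamini-Hochberg, adjusted p = 0.554), and of Tap2, a subunit of the peptide transporter of antigen presentation, at -0.21 (SE 0.15; limma with Benjamini-Hochberg, adjusted p = 0.555). Cxcl9 was at 8.18 and 8.14 in control rats 1 and 4 and between 7.48 and 7.78 in the other 6 rats, so that the highest Cxcl9 value was in the rat with the lowest mean of the interferon-induced genes. At the other measured probe set of Cxcl9 the difference was also negative, -0.23, and rank products called it lower (FDR 0.0276).

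Upstream of the targets few genes could be followed. The ligands Ifnb1, Ifng and Ifnk had nearly constant probe sets, and 0 of 3 ligands with a named probe set were measured. Of 13 sensors and adaptors with a named probe set 1 was measured, Myd88, the adaptor of most Toll-like receptors, with a difference of 0.10 (SE 0.09; limma with Benjamini-Hochberg, adjusted p = 0.643). Of the 19 receptor and JAK-STAT genes with a named probe set 6 were measured. Rank products called 1 of the 6, Il10rb, higher, against 8.5% of all measured probe sets. Il10rb encodes a receptor chain shared by interleukin 10 and the type III interferons. It was 8.17, 8.24, 8.16 and 7.99 in control rats 1 to 4 and 8.34, 8.50, 8.35 and 8.48 in HP rats 1 to 4. The diets did not overlap, which 3.1% of all measured probe sets showed with HP above control. The difference was 0.28 (SE 0.08; limma with Benjamini-Hochberg, adjusted p = 0.269; FDR 0.00833). The other 5 genes had negative differences, from -0.20 to -0.03, and none was called, where 11.9% of all measured probe sets were called lower.

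Markers of liver cell types were set beside the diets, and limma passed 0 of them. All 10 measured Kupffer cell and macrophage markers had a negative difference, with a median of -0.09, and rank products called 1 of the 10, Cd5l, lower (difference -0.33; FDR 0.00935), against 11.9% of all measured probe sets. All 4 measured markers of sinusoidal endothelial cells had a positive difference, with a median of 0.19, and rank products called 2 of the 4, Kdr and Stab2, higher (0.26 and 0.23), against 8.5% of all measured probe sets. Of the 6 measured hepatocyte markers 1, Cps1, was called lower (-0.27; FDR 0.0179), and the median was -0.01. The part of these in the differences of Rtp4, Ifit2, Trim34 and Il10rb was not tested.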

How the data were processed

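Liver RNA of 8 rats was analysed, 4 per diet, with 1 array each. The deposited values are log2 probe set values that the authors summarised from the scanned arrays with FARMS in R 2.13.1. How the arrays were normalized to each other is not stated in the labels or methods, and none was added. No detection value was used. Gene symbols came from the platform annotation, which gives 1 symbol for 20826 probe sets, several for 436 and none for 9780. A gene with several measured probe sets was taken at the brightest of them on average.

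Linear models were fitted with limma 3.58.1 (trend and robust empirical Bayes; R 4.3.3, statmod 1.5.0) over the 4155 measured probe sets, two-sided. Rank products used 16 differences between arrays and 1000 permutations of values within arrays (100 in the alternatives), in Python 3.11.15 with numpy 2.4.6, pandas 2.3.3, scipy 1.17.1 and matplotlib 3.10.9. Both methods were run on simulated data, with shifts far larger than the differences of the listed genes. For rank products all simulated probe sets had the same spread and none was nearly constant. That run therefore does not cover the deposited values. Correlations were tested by exact permutation over rats. The number of arrays limits the precision.

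The members, the lists and the tests were chosen with earlier results of these data known. Alb and the other probe set of Cxcl9 were named after their values were seen, and Isg15, Mx2, Oas1a and Usp18 were grouped by their r in these rats. Otherwise the 9 genes were named at every probe set, and in each other list the genes called by a test or otherwise the 2 with the largest differences, beside the 10 genes most like the mean of the 7. Alternatives changed the scaling (arrays centred, or quantiles matched), the span required (none, or 0.2), the brightness required (all but the dimmest 25%), the fit (no trend, array weights, replicate block), the probe set of a gene (their mean) and the rats (each left out once). For the correlations and the FDR of single genes they were added after seeing the data.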

Additional observations from a re-analysis of the deposited data

Results flagged for a closer look

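The 31 named genes with a measured probe set were searched within each diet for a rat far from the others by Dixon's test, in 66 groups of 4 values, of which chance marks about 1 in 20, or 3.3. There was 1 such value, the log2 value of Rtp4 in control rat 4, 7.66, whose gap to the nearest control rat made up 0.919 of the range of the control rats. Leaving out the highest control rat can only raise the difference of Rtp4, which was then 0.33, with a rank products FDR of 0.00471.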

How the results depend on the processing

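The count of limma calls was 0 under all 16 alternatives (smallest adjusted p from 0.0517 to 0.462, Benjamini-Hochberg), and the median difference of the 7 genes was positive under all 16, from 0.03 (dimmest 25% of probe sets left out, which left 5 of the 7 genes) to 0.24. Rtp4, Ifit2 and Oas1a had a positive difference under every alternative run. The difference turned in Irf7 without control rat 2 (-0.038) or HP rat 2 (-0.054), with 0.084 as the highest value without 1 rat, in Isg15 with arrays centred on the measured median (0.0054) and without control rat 3 (0.061), control rat 4 (0.069) or HP rat 4 (0.0016), with -0.138 without control rat 1, in Mx2 without control rat 1 (-0.066; 0.237 without control rat 3), and in Usp18 with array weights (-0.033) and without control rat 1 (-0.108), control rat 2 (-0.012), HP rat 2 (-0.036) or HP rat 4 (-0.0041), with 0.121 without control rat 3. The cause was not tested. Rank products called 25 probe sets higher and 17 lower when the measured ones alone were ranked, and 235 and 306 with the dimmest 25% left out. Leaving out a rat gave 84 to 587 higher and 73 to 539 lower. These extremes came without control rat 1 (587) and HP rat 2 (84) for higher calls, and without control rat 3 (73) for lower calls. Without control rat 3, 11 pairs of the 7 genes had an r of at least 0.7, and without each other rat the number was within 1.5 times that over 8 rats. The deviations of same-numbered rats had an r of 0.479, 0.0308, -0.123 and -0.197 over probe sets. Control rat 1 and HP rat 1 were each other's best match, whereas the rats numbered 2, 3 and 4 were not paired by their number. With a replicate block, limma made 0 calls and rank products 424 and 555, and the median difference was 0.12. Probe sets that FARMS left nearly constant, such as those of Ifit3 and Mx1, limit what can be said of these genes.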
